A study of Mus musculus with 8 samples.

Results

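The secreted Wnt modulators described here are 10 genes taken by symbol from the table of bias-adjusted fragments: the secreted frizzled-related proteins Sfrp1, Sfrp2, Sfrp4, Sfrp5 and Frzb, the Wnt inhibitory factor Wif1, the Dickkopf genes Dkk2 and Dkk3, and the R-spondins Rspo1 and Rspo3. The files write them in lower case (sfrp1, sfrp2, sfrp4, sfrp5, frzb, wif1, dkk2, dkk3, rspo1, rspo3). All 10 were found among the 22558 genes of that table, and all 10 were among the 14847 that passed the filter on low counts. The study sequenced total RNA, after amplification with the MessageAmp kit, from mouse cells sorted by flow cytometry for FAP, fibroblast activation protein, a membrane serine protease of stromal fibroblasts. FAP+ cells came from visceral adipose tissue, from skeletal muscle and from the pancreas, where the submitters call them stellate cells. The cells they were set against were FAP-negative mouse embryonic fibroblasts (MEFs), which were sorted for lack of FAP, cultured for 3 passages and sorted again. Each of the 4 groups had 2 libraries from duplicate isolations, and no genotype, strain, age or treatment was given for any of them. The MEFs differ from the FAP+ cells in FAP status, developmental stage and culture, and these cannot be told apart in any comparison with MEFs.

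Wnt proteins are secreted signals that bind frizzled receptors and the co-receptors Lrp5 and Lrp6 on a cell, and in the canonical branch this stabilises beta-catenin, which acts with TCF/LEF factors on target genes. The secreted modulators tune this step outside the cell: SFRPs and Wif1 bind Wnts themselves, Dickkopf proteins act on the Lrp co-receptors, and R-spondins bind Lgr receptors and the ubiquitin ligases Znrf3 and Rnf43, which keeps frizzled receptors at the surface. Fibroblasts and other mesenchymal cells are a main source of these proteins in adult tissues.

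Promoter sequences are shown for Dkk2, Wif1 and Rspo1, the members that differed most between the FAP+ cells of the 3 tissues: Dkk2 and Wif1 were highest in muscle and Rspo1 was lowest there. The windows are RefSeq's, on GRCm38.p6, a later build than the mm9 named in the submitters' processing notes. They run from 250 bases before to 50 bases after the start, and capitals mark CpG pairs. Of the 10 members, 6 had a window of this kind. Dkk2 lies at chr3:132085042-132085341 on the plus strand, Wif1 at chr10:121033754-121034053 on the plus strand and Rspo1 at chr4:124986180-124986479 on the plus strand.
Dkk2: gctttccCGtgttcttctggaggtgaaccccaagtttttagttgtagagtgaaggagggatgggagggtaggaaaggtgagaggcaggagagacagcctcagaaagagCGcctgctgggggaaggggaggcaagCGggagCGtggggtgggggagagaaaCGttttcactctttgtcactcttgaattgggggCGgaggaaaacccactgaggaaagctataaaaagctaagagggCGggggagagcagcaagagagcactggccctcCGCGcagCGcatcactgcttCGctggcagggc
Wif1: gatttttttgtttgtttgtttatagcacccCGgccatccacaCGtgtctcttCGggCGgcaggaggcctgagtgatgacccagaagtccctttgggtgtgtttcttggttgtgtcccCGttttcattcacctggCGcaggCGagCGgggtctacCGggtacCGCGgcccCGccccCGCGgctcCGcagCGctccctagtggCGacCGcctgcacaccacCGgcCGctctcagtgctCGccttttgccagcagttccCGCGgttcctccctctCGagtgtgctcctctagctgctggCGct
Rspo1: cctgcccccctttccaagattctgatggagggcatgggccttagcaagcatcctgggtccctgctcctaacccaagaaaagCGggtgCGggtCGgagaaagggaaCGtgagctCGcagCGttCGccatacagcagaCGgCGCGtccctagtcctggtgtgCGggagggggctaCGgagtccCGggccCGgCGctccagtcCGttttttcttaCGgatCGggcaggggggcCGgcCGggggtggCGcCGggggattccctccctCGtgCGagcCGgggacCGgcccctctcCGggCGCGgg

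The Rspo1 window held 29 CpG pairs and the Wif1 window 25, against a median of 7 over all 32851 promoter windows of the same length, while the Dkk2 window held 11. The other members with a window held 22 (Sfrp2), 20 (Frzb) and 15 (Sfrp5). TATAAA, searched on both strands, occurred once in the Dkk2 window and once, on the minus strand, in the Wif1 window, and 13.6% of all windows hold it. GGGCGG occurred 2 times in each of the Dkk2 and Wif1 windows and not in that of Rspo1, and 35.7% of all windows hold it. None of the 4 TCF/LEF forms searched on both strands, CTTTGAA or CTTTGAT or CTTTGTA or CTTTGTT, occurred in the 6 windows, and 16.9% of all windows hold at least 1 of them.

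Libraries held between 15516319 and 27759399 estimated fragments. Fap itself had 28 and 34.4 CPM (fragments scaled to library size with TMM factors) in adipose, 88.8 and 107 CPM in muscle and 55.4 and 65.6 CPM in pancreas FAP+ libraries, against 2.37 and 0.516 CPM in MEFs. All 10 stromal markers had at least 3 fragments in every library, and their summed level was 22568 to 51299 CPM in FAP+ libraries, against 3830 and 5046 CPM in MEFs. Of the stellate markers, Lrat was at 0.10 and 0.31 CPM and Gfap at 0.10 and 0.47 CPM in the pancreas libraries, near the level of 3 fragments (0.156 CPM in each), so the pancreas cells are called FAP+ pancreas cells here. Adipose library 1 stood apart: its TMM factor was 0.516, against 0.889 to 1.31 in the other 7. The bias adjustment gave its genes fewer fragments per recovered read at the low end, with a 10th percentile of 0.195 against 0.543 to 0.723 in the other 7. Adipose results of the 10 members that were called are therefore also given without it. Adipose results of all other genes below are given with it only.

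Against MEFs, the SFRP genes and the R-spondins gave most of the higher levels in FAP+ cells, and Frzb and Dkk3 were lower in FAP+ cells of every tissue. In adipose FAP+ cells 5 members were higher, 4 lower and 1 not called, where 50.1% of all genes tested were called (26.9% higher, 23.2% lower). Muscle FAP+ cells had 4 higher, 2 lower and 4 not called, where 43.8% of all genes were called (23.7% higher, 20.0% lower). In the pancreas 4 were higher, 3 lower and 3 not called, where 42.5% of all genes were called (23.1% higher, 19.4% lower). Called means an adjusted p below 0.05 in edgeR's quasi-likelihood test over all 8 libraries, with Benjamini-Hochberg adjustment over the 14847 genes. The 9, 6 and 7 members called are thus to be read against backgrounds of 42.5% to 50.1%, and the sizes of the changes say more than the counts. Of all calls, 53.6% were higher in adipose tissue, 54.2% in muscle and 54.4% in the pancreas, while limma on FPKM put 19.3% to 22.7%, 27.3% to 33.8% and 31.6% to 39.6% of its calls there. The median log2 fold change of the 10 members was 1.11 in adipose, 1.35 in muscle and 0.79 in pancreas, against 0.05, 0.03 and 0.02 over all genes tested. The 6 other Wnt modulators tested, described below, had medians of -2.74, -2.35 and -2.84 in the same order. Not all of these 6 are secreted, Tpbg being a membrane protein. The 10 members were chosen with earlier results of these data known, so their medians are no test of secreted modulators as a family. In these bulk samples fewer cells that express a gene and less RNA per cell cannot be told apart.

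**Figure D1:**
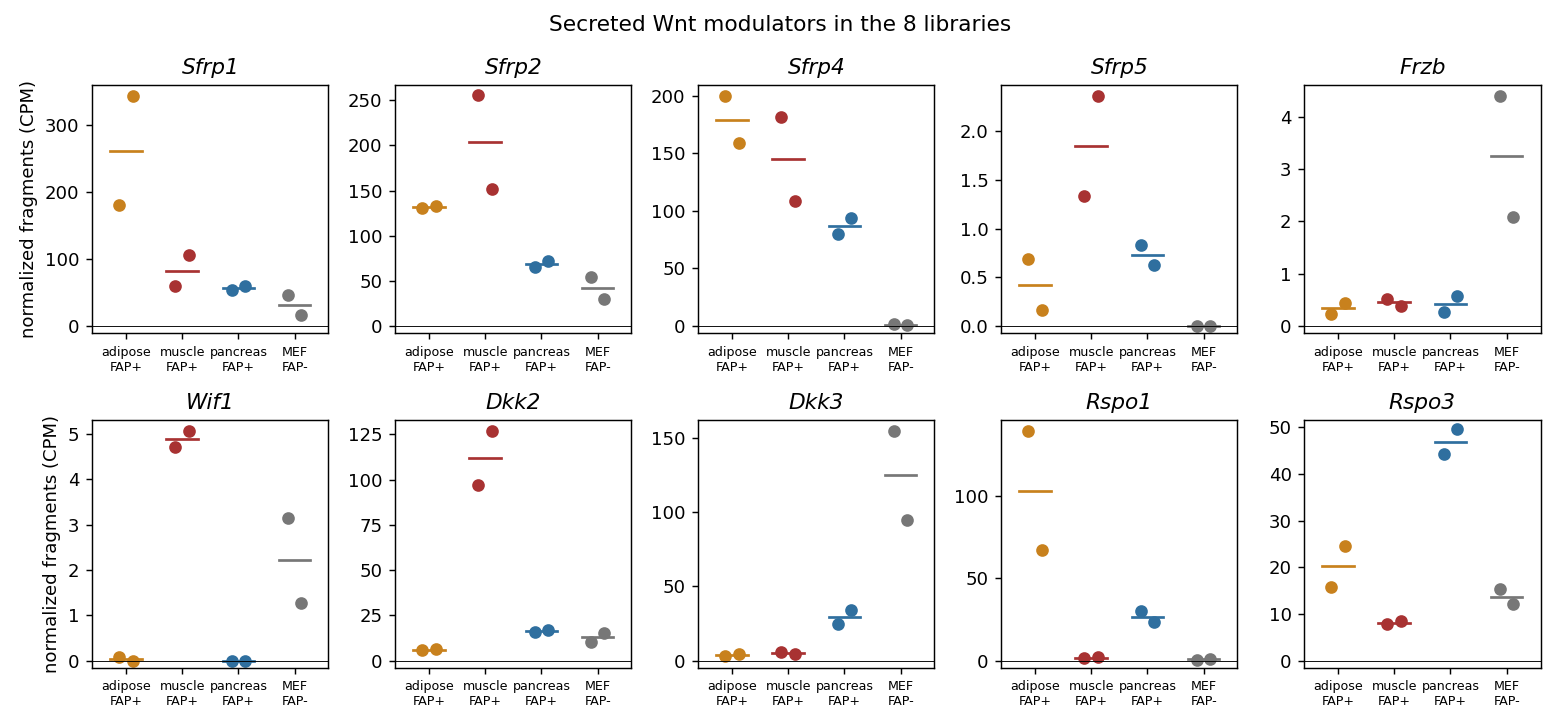
Normalized fragments (CPM, linear axis from 0, one scale per gene) of the 10 genes in the 8 libraries; points are libraries, horizontal lines are group means of 2 libraries. Sfrp4 sits at 79.4 CPM or more in all 6 FAP+ libraries and at 1.68 CPM or less in MEFs, whereas Dkk2 is highest in muscle, Rspo1 in adipose tissue and Rspo3 in the pancreas.

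Sfrp4, a secreted frizzled-related protein of connective tissue, rose over MEFs in each of the 3 tissues. It had 199 and 159 CPM in adipose, 181 and 109 CPM in muscle and 79.4 and 93.9 CPM in pancreas FAP+ libraries, against 1.68 and 0.546 CPM in MEFs. All 6 FAP+ libraries were far above both MEF libraries. The log2 fold change was 7.32 ± 0.62 (SE) in adipose tissue (160-fold, adjusted p = 0.000118), 7.02 ± 0.62 in muscle (130-fold, adjusted p = 0.000161) and 6.28 ± 0.60 in the pancreas (77.4-fold, adjusted p = 0.000226). No difference in Sfrp4 between the 3 FAP+ tissues passed the same test, with adjusted p between 0.207 and 0.709, and muscle and adipose libraries overlapped. Without adipose library 1 the adipose value was 7.16, and without MEF library 1 the 3 values were 8.33, 8.02 and 7.29.

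Sfrp2, a close relative of Sfrp1 that fibroblasts secrete in quantity, was present in every library. It had 130 and 133 CPM in adipose, 256 and 152 CPM in muscle and 65.6 and 72.2 CPM in pancreas FAP+ libraries, against 54.0 and 29.6 CPM in MEFs. In CPM every FAP+ library was above both MEF libraries, and the 2 muscle libraries were the highest. On FPKM, MEF library 1 (49.3) was above adipose library 1 (38.2) and both pancreas libraries (39.3 and 47.9). The difference from MEFs passed in muscle (log2 2.29 ± 0.39, adjusted p = 0.00269) and in adipose tissue (1.66 ± 0.38, adjusted p = 0.00904) and not in the pancreas (0.72 ± 0.37, adjusted p = 0.151). The adipose value was 1.68 without adipose library 1. The adipose call was lost without MEF library 2 (1.31, adjusted p = 0.0542) and in limma on log2(FPKM + 1), where the value was 0.57 (adjusted p = 0.302). Between pancreas and muscle the value of -1.56 missed the threshold (adjusted p = 0.0718) and passed without adipose library 1 (adjusted p = 0.022) or adipose library 2 (adjusted p = 0.0238).

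Sfrp1, which binds Wnts and is studied in adipose tissue for its part in fat cell formation, was highest in adipose tissue. It had 180 and 343 CPM in adipose, 58.8 and 106 CPM in muscle and 53.1 and 59.9 CPM in pancreas FAP+ libraries, against 46.5 and 15.8 CPM in MEFs. In CPM the 2 adipose libraries lay above all others and were far apart from each other. On FPKM, muscle library 2 (28.2) was above adipose library 1 (24.1). Only the adipose difference from MEFs passed (3.07 ± 0.59, adjusted p = 0.0044; 3.47 without adipose library 1 and 4.03 without MEF library 1), while muscle (1.40 ± 0.56, adjusted p = 0.0763) and pancreas (0.86 ± 0.55, adjusted p = 0.244) did not. The muscle difference passed without MEF library 1 (2.36, adjusted p = 0.0311), without adipose library 1 (1.41, adjusted p = 0.0277) and without adipose library 2 (1.40, adjusted p = 0.0291). Between pancreas and adipose tissue the value of -2.21 missed the threshold (adjusted p = 0.0543) and passed without adipose library 1 (-2.61, adjusted p = 0.0163), adipose library 2 (-1.67, adjusted p = 0.0419), MEF library 1 (-2.20, adjusted p = 0.0434) or MEF library 2 (-2.20, adjusted p = 0.0421). The summed level of the 6 endothelial markers was also highest in adipose tissue, at 404 and 559 CPM with all 6 detected, against 13.5 and 59.5 CPM in muscle, 7.35 and 7.43 CPM in the pancreas and 2.58 and 2.37 CPM in MEFs, and its part in the Sfrp1 values was not tested.

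Sfrp5 and Frzb, the remaining SFRP genes, were near the limit of counting in one direction or the other. Sfrp5, which is described as an adipose-derived Wnt antagonist in mice, had 9 and 4 fragments in adipose, 21 and 55 in muscle and 16 and 12 in pancreas FAP+ libraries, against 0 and 0 in MEFs. With MEFs set at 3 fragments per library, it was at least 4.69-fold higher in adipose tissue (adjusted p = 0.0107), at least 20.4-fold higher in muscle (adjusted p = 0.00222) and at least 8.05-fold higher in the pancreas (adjusted p = 0.00562). The adipose bound uses the mean of 0.686 and 0.162 CPM, so it rests mostly on library 1 and was not computed without it. Adipose library 2, at 0.162 CPM, was close to the MEF level of 3 fragments, 0.0900 and 0.0911 CPM. None of these bounds allows for counting error in the FAP+ fragments. The fitted adipose value, which depends on the prior count and is no bound, was 6.17 and without adipose library 1 it was 5.01 (adjusted p = 0.0236). The adipose call was lost in limma on log2(FPKM + 1) (0.20, adjusted p = 0.261). Its adipose levels of 0.686 and 0.162 CPM were below both muscle levels of 1.34 and 2.36 CPM, a difference that did not pass (muscle against adipose 2.23, adjusted p = 0.149) but did without adipose library 1 (3.47, adjusted p = 0.048).

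Frzb, also called Sfrp3 and first known from cartilage, went the other way. It had 0.229 and 0.446 CPM in adipose, 0.510 and 0.386 CPM in muscle and 0.261 and 0.572 CPM in pancreas FAP+ libraries, against 4.41 and 2.09 CPM in MEFs. All FAP+ libraries were below both MEF libraries and the FAP+ tissues overlapped one another. The log2 fold change was -3.19 ± 0.65 in adipose tissue (adjusted p = 0.00546), -2.86 ± 0.63 in muscle (adjusted p = 0.00869) and -2.95 ± 0.63 in the pancreas (adjusted p = 0.00794). The adipose value was -2.84 without adipose library 1, -3.80 without adipose library 2 and -2.57 without MEF library 1, and the pancreas value was -3.61 without pancreas library 2. The muscle call was lost without muscle library 1 (-3.06, adjusted p = 0.0513), muscle library 2 (-2.66, adjusted p = 0.077) or MEF library 1 (-2.24, adjusted p = 0.0577), and the pancreas call without pancreas library 1 (-2.48, adjusted p = 0.0633) or MEF library 1 (-2.32, adjusted p = 0.055). MEFs also had the highest summed level of the 6 cartilage markers, 1400 and 929 CPM, against 11.6 to 133 CPM in FAP+ libraries. Most of that sum was Col2a1, at 1299 and 821 CPM in MEFs and at most 5.29 CPM in FAP+ libraries. Comp, the next highest marker, was instead highest in muscle, at 119 and 57.9 CPM, against 38.8 and 27.6 CPM in MEFs. The part of the cartilage markers in the Frzb values was not tested.

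Wif1, which binds Wnt proteins through a WIF domain, was detected in muscle FAP+ cells and in MEFs and was almost absent elsewhere. It had 1 and 0 fragments in adipose, 74 and 118 in muscle and 0 and 0 in pancreas FAP+ libraries, against 105 and 42 in MEFs. The adipose library with the single fragment was library 1, where the bias adjustment gave 1.07 fragments for 3 recovered reads. On recovered reads the log2 fold change against MEFs was -5.01 in adipose tissue and -6.29 in the pancreas. The difference between muscle and MEFs did not pass (4.72 and 5.06 CPM in muscle, against 3.15 and 1.27 CPM in MEFs, log2 1.14 ± 0.62, adjusted p = 0.174), although the muscle libraries were the higher ones. With the pancreas set at 3 fragments per library, Wif1 was at least 14.2-fold lower there than in MEFs (adjusted p = 0.00261), and in adipose tissue the level in MEFs was 83.8 times the adipose level (95% counting interval 14.8 to 3331, adjusted p = 0.00348). Without adipose library 1 no Wif1 fragment was left in adipose tissue, which was then at least 18.2-fold lower than MEFs (adjusted p = 0.00212). The tendon marker Tnmd was higher in muscle and MEFs than in adipose tissue and the pancreas, but with MEFs on top in the means, at 4.19 and 3.33 CPM in adipose, 25.8 and 19.9 CPM in muscle and 0.05 and 0 CPM in pancreas FAP+ libraries, against 40.5 and 25.5 CPM in MEFs. Scx, the highest tendon marker, was at 58.8 and 84.3 CPM in MEFs and was low in muscle. It was at 2.90 and 0.49 CPM in adipose, 3.13 and 4.55 CPM in muscle and 0.31 and 0.47 CPM in pancreas FAP+ libraries. The summed level of the 3 tendon markers was 3.89 to 7.09 CPM in adipose, 25.1 to 29.3 CPM in muscle and 0.469 to 0.520 CPM in pancreas FAP+ libraries, against 104 and 113 CPM in MEFs, and their part in the Wif1 values was not tested.

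Dkk2, a Dickkopf protein that binds Lrp5 and Lrp6 and can block or weakly mimic Wnt depending on the cell, was highest in muscle. It had 5.57 and 6.65 CPM in adipose, 96.8 and 127 CPM in muscle and 15.5 and 17.1 CPM in pancreas FAP+ libraries, against 10.05 and 15.5 CPM in MEFs. The 2 muscle libraries were above every other library by several times and the 2 adipose libraries were the lowest. Muscle exceeded MEFs by a log2 fold change of 3.13 ± 0.31 (8.77-fold, adjusted p = 0.000278). Adipose tissue was below MEFs by -1.06 ± 0.30 (adjusted p = 0.0214), a call kept without adipose library 1 (-0.94, adjusted p = 0.0462) and lost without MEF library 2 (-0.69, adjusted p = 0.136), and the difference between pancreas and MEFs did not pass (0.36 ± 0.29, adjusted p = 0.356).

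Dkk3, the most divergent Dickkopf, for which no clear action on Lrp5 and Lrp6 is established, was the leading modulator of MEFs. It had 2.74 and 4.54 CPM in adipose, 5.93 and 4.25 CPM in muscle and 24.4 and 33.8 CPM in pancreas FAP+ libraries, against 155 and 94.9 CPM in MEFs. All 6 FAP+ libraries were below both MEF libraries, with the pancreas between MEFs and the other tissues. The log2 fold change against MEFs was -5.08 ± 0.44 in adipose tissue (33.8-fold lower, adjusted p = 0.000124), -4.62 ± 0.43 in muscle (24.6-fold lower, adjusted p = 0.000197) and -2.10 ± 0.38 in the pancreas (4.28-fold lower, adjusted p = 0.00373). The adipose value was -4.77 without adipose library 1.

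Rspo1, a ligand of Lgr receptors that strengthens Wnt signals, was high in adipose tissue and the pancreas and low in muscle and MEFs. It had 139 and 67.1 CPM in adipose, 1.40 and 2.19 CPM in muscle and 30.2 and 23.1 CPM in pancreas FAP+ libraries, against 0.63 and 0.85 CPM in MEFs. No libraries of different groups overlapped. It was higher than in MEFs by a log2 fold change of 7.11 ± 0.52 in adipose tissue (138-fold, adjusted p = 6.77e-05, and 6.50 without adipose library 1). In the pancreas it was higher by 5.16 ± 0.48 (35.8-fold, adjusted p = 0.000214). The bias adjustment gave Rspo1 2.51 and 1.81 fragments per recovered read in adipose libraries, against 1.42 to 1.67 in the others. Adipose RPKM was 20.2 and 24.3, the reverse of the order in CPM. On reads recovered from RPKM the values against MEFs were 6.29 in adipose tissue and 5.11 in the pancreas. The muscle difference of 1.29 ± 0.46 missed the threshold (adjusted p = 0.0535) and passed with upper quartile scaling, a filter of 5 CPM, recovered reads, only these groups in the fit or DESeq2 (adjusted p = 0.00608 to 0.0471), as well as without adipose library 1 (1.29, adjusted p = 0.00934) and without adipose library 2 (1.30, adjusted p = 0.00862). Of the mesothelial markers, Wt1 was likewise highest in adipose tissue and next in the pancreas, but lower in muscle than in MEFs, at 64.3 and 92.6 CPM in adipose, 0.06 and 0.09 CPM in muscle and 19.2 and 14.1 CPM in pancreas FAP+ libraries, against 0.48 and 0.21 CPM in MEFs. The other defining mesothelial markers were low in adipose tissue, with Msln at 1.30 and 0.69 CPM and Upk3b at 1.52 and 1.10 CPM, and 8 of the 9 were detected there. The summed mesothelial level was 82.0 and 98.7 CPM in adipose, 8.23 and 6.01 CPM in muscle and 274 and 96.9 CPM in pancreas FAP+ libraries, against 57.9 and 75.2 CPM in MEFs, and its part in the Rspo1 values was not tested.

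Rspo3, the other R-spondin, which acts through the same receptors, was highest in the pancreas. It had 15.9 and 24.7 CPM in adipose, 7.84 and 8.45 CPM in muscle and 44.3 and 49.6 CPM in pancreas FAP+ libraries, against 15.4 and 12.1 CPM in MEFs. Both pancreas libraries were above all others, and both muscle libraries were below all others. The pancreas exceeded MEFs by 1.77 ± 0.29 (3.42-fold, adjusted p = 0.00255), a call that was lost in limma on log2(FPKM + 1) (1.22, adjusted p = 0.0591). Adipose tissue (0.57 ± 0.29, adjusted p = 0.134) and muscle (-0.75 ± 0.29, adjusted p = 0.0695) were not called against MEFs. In adipose library 1 the bias adjustment gave Rspo3 0.212 fragments per recovered read, against 0.594 in adipose library 2 and 0.581 to 0.784 in the other 6 libraries. Without that library the adipose difference passed (0.85, adjusted p = 0.0146), as did the muscle one (-0.75, adjusted p = 0.0109), which passed without adipose library 2 as well (-0.75, adjusted p = 0.0135). On whole reads recovered from the RPKM values both passed, at 1.18 in adipose tissue (adjusted p = 0.00195) and -0.93 in muscle (adjusted p = 0.00664). On FPKM the adipose difference was negative, at -0.50 to -0.58, where the median over all genes was itself -0.65 to -1.02.

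**Figure D2:**
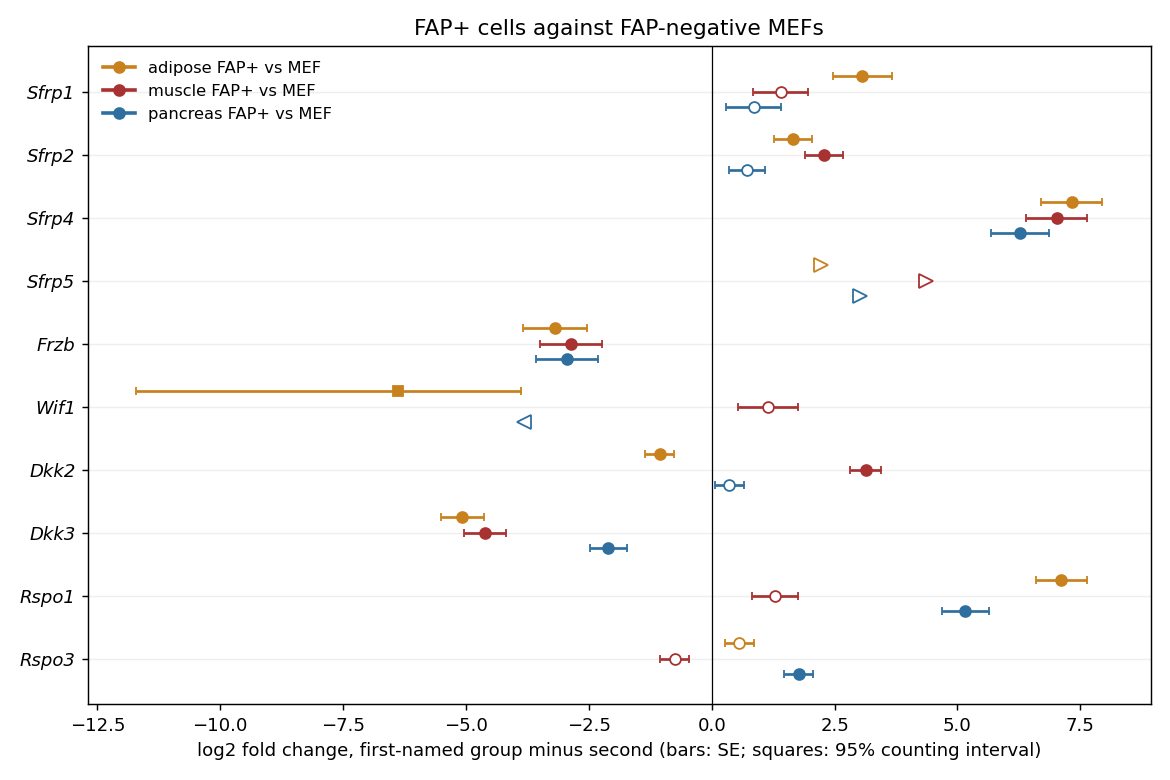
Log2 fold change of the 10 genes in FAP+ cells of adipose tissue, muscle and pancreas against FAP-negative MEFs (x axis); bars are SE from edgeR, filled points passed an adjusted p of 0.05 and open circles did not. Open triangles are lower bounds against 3 fragments per library and passed too, and the square is the Wif1 ratio in adipose tissue, which rests on 1 adipose fragment, with its 95% counting interval. Sfrp4 lies between 6.28 and 7.32 in all 3 tissues, and Dkk3 between -5.08 and -2.10.

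Set against one another, the FAP+ cells of the 3 tissues differed in Dkk2, Dkk3, Wif1 and both R-spondins, while the edgeR test called none of the 15 SFRP differences, with 5 of them at an unadjusted p below 0.05. DESeq2 called 3 of the 15, and edgeR on recovered reads called 5, in Sfrp1, Sfrp2 and Sfrp5. Muscle against adipose tissue gave 2 members higher, 2 lower and 6 not called, where 6.12% of all genes tested were called (2.34% higher, 3.78% lower). Pancreas against adipose tissue gave 3 higher, 1 lower and 6 not called, where 9.05% were called (3.32% higher, 5.73% lower). Pancreas against muscle gave 3 higher, 2 lower and 5 not called, where 3.67% were called (1.54% higher, 2.14% lower). Of all calls, 38.2%, 36.7% and 41.8% were in the higher direction in these 3 comparisons, and with limma on FPKM 49.5% to 56.3%, 63.5% to 66.6% and 50.8% to 54.3%. These 3 comparisons share libraries in pairs and are not independent, and the 4, 4 and 5 of 10 members called stand beside these backgrounds.

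Dkk2 was higher in muscle than in adipose tissue by 4.19 ± 0.33 (18.3-fold, adjusted p = 0.00178) and lower in the pancreas than in muscle by -2.78 ± 0.31 (6.85-fold, adjusted p = 0.00528). The pancreas also exceeded adipose tissue, by 1.41 ± 0.30 (2.67-fold, adjusted p = 0.0296). Its order was thus muscle, pancreas, adipose tissue, with no overlap between the groups. Without adipose library 1 the values against adipose tissue were 4.06 for muscle and 1.29 for the pancreas (adjusted p = 0.0445). Wif1 was higher in muscle than in adipose tissue by 186 times (with a 95% counting interval of 33.0 to 7385, adjusted p = 0.0133), or at least 40.2-fold without adipose library 1 (adjusted p = 0.00744), and at least 31.3-fold lower in the pancreas than in muscle (adjusted p = 0.0122). On recovered reads the log2 fold change of Wif1 was 6.13 for muscle against adipose tissue and -7.41 for pancreas against muscle. Between pancreas and adipose tissue, where 1 fragment was counted in all, Wif1 has no fold.

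Rspo1 ran opposite to Dkk2 between muscle and adipose tissue. It was lower in muscle than in adipose tissue by -5.82 ± 0.49 (56.6-fold, adjusted p = 0.00226), and higher in the pancreas than in muscle by 3.87 ± 0.45 (14.6-fold, adjusted p = 0.00608). The pancreas was below adipose tissue by -1.95 ± 0.40 (3.87-fold, adjusted p = 0.0266). Without adipose library 1 the values were -5.20 for muscle against adipose tissue and -1.34 for pancreas against adipose tissue (adjusted p = 0.0196). The call between pancreas and adipose tissue was lost in limma on log2(FPKM + 0.1) (-1.22, adjusted p = 0.0823). In edgeR on recovered reads the Rspo1 values were smaller, at -4.87 for muscle against adipose tissue (adjusted p = 0.000187). For pancreas against adipose tissue the value on reads was -1.18 (adjusted p = 0.0118).

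Rspo3 was lower in muscle than in adipose tissue by -1.32 ± 0.29 (2.49-fold, adjusted p = 0.0432), and higher in the pancreas than in adipose tissue by 1.21 ± 0.29 (2.31-fold, adjusted p = 0.0421). The pancreas exceeded muscle by 2.52 ± 0.30 (5.75-fold, adjusted p = 0.00655). Without adipose library 1 the values against adipose tissue were -1.61 for muscle (adjusted p = 0.00563) and 0.92 for the pancreas (adjusted p = 0.042). Both adipose calls were close to the threshold: that for muscle was lost in 7 other settings (adjusted p = 0.0575 to 0.396), and that for the pancreas in 7 (adjusted p = 0.0552 to 0.163), recovered reads among them (0.56, adjusted p = 0.0876). Dkk3 was higher in the pancreas than in adipose tissue by 2.98 ± 0.40 (7.88-fold, adjusted p = 0.00633; 2.67 without adipose library 1) and than in muscle by 2.52 ± 0.39 (5.74-fold, adjusted p = 0.0169), and muscle and adipose libraries overlapped (0.46 ± 0.39, adjusted p = 0.497). In limma on log2(FPKM + 0.1) the difference between pancreas and muscle was 2.60 and no longer passed (adjusted p = 0.05). In the pancreas libraries all 7 acinar markers were detected, with a summed level of 170 and 76.2 CPM against at most 5.87 CPM elsewhere, and their part in the Rspo3 and Dkk3 values was not tested.

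Leaving out 1 library at a time changed many of these calls, with 3 residual degrees of freedom left. Without pancreas library 1 none of the 4 calls between pancreas and adipose tissue passed (adjusted p = 0.0538 to 0.164), nor without pancreas library 2 (adjusted p = 0.0577 to 0.217). Without muscle library 1 or 2, Dkk3 was the only member called there, with Dkk2 at an adjusted p of 0.0621 and 0.0633, Rspo1 at 0.0539 and 0.0541 and Rspo3 at 0.0918 and 0.0932. Rspo1 and Rspo3 were also lost there without MEF library 1 (0.051 and 0.0739) or MEF library 2 (0.0535 and 0.0694). Between pancreas and muscle no member was called without pancreas library 1 (adjusted p = 0.0513 to 0.0929), Rspo1 alone was called without pancreas library 2, and Dkk2 alone was called without muscle library 1 or 2. Between muscle and adipose tissue, Dkk2 and Rspo1 passed without any 1 library, while Wif1 was lost without muscle library 1 (adjusted p = 0.0915) or 2 (adjusted p = 0.0841). Rspo3 was lost there without muscle library 1 (adjusted p = 0.28), muscle library 2 (0.226), pancreas library 1 (0.093), pancreas library 2 (0.0954), MEF library 1 (0.078) or MEF library 2 (0.0763). Every call lost here had the same direction as with all libraries. Fitting just the pair of groups in question also lost Dkk2 (adjusted p = 0.109) and Rspo1 (adjusted p = 0.113) between pancreas and adipose tissue, Wif1 between muscle and adipose tissue (adjusted p = 0.0556) and Dkk2 between adipose tissue and MEFs (adjusted p = 0.125).

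**Figure D3:**
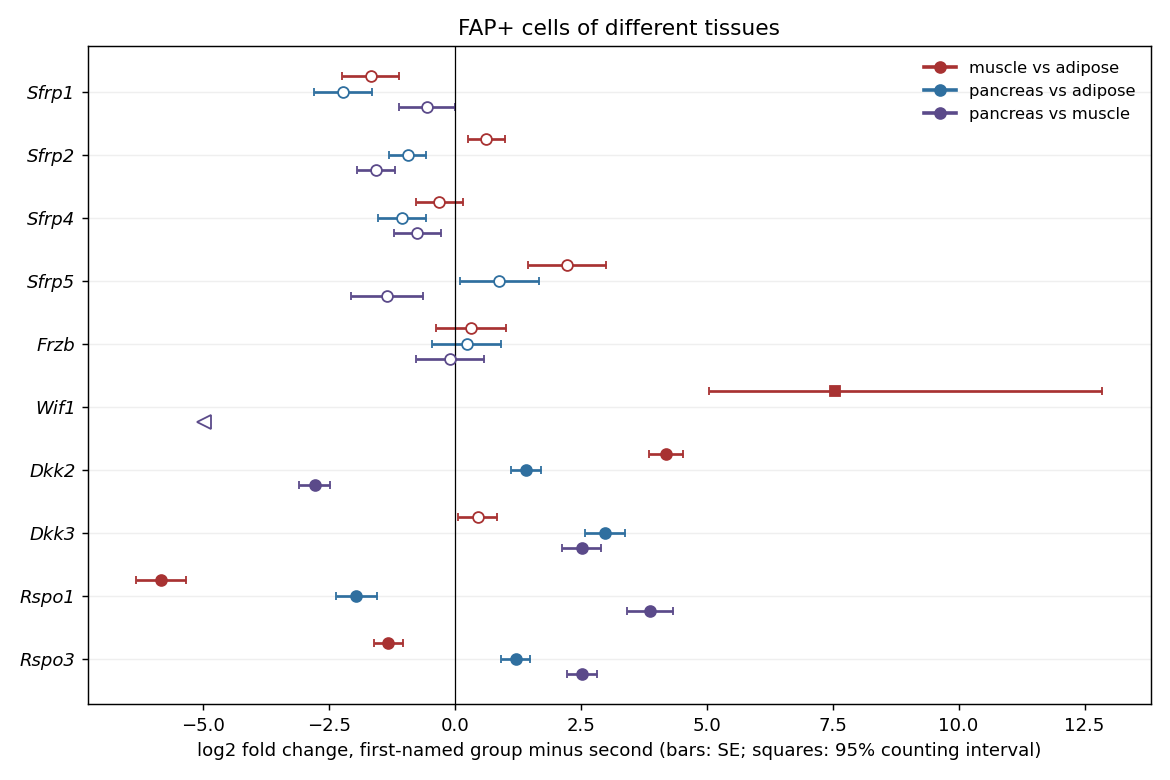
Log2 fold change of the 10 genes between FAP+ cells of different tissues (x axis, first-named tissue minus second), with SE bars; filled points passed an adjusted p of 0.05 and open circles did not. The triangle is the bound for Wif1 in pancreas against muscle, which passed, the square is its ratio in muscle against adipose tissue with the 95% counting interval, and no Wif1 point is drawn for pancreas against adipose tissue. Dkk2 and Rspo1 lie on opposite sides of 0 in all 3 comparisons.

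Levels of different genes were compared per length, as FPKM. Summed over the 5 SFRP genes, the level was 129 and 260 FPKM in adipose, 273 and 190 FPKM in muscle and 109 and 138 FPKM in pancreas FAP+ libraries, against 73.3 and 33.0 FPKM in MEFs. The 2 Dickkopf genes summed to 1.35 and 3.47 FPKM in adipose, 31.0 and 41.4 FPKM in muscle and 13.7 and 19.5 FPKM in pancreas FAP+ libraries, against 89.1 and 55.1 FPKM in MEFs. The R-spondins summed to 48.4 and 51.7 FPKM in adipose, 4.49 and 5.49 FPKM in muscle and 41.9 and 44.3 FPKM in pancreas FAP+ libraries, against 12.4 and 9.36 FPKM in MEFs. SFRP sums were thus above both MEF libraries in all 6 FAP+ libraries, and R-spondin sums were above them in adipose tissue and pancreas but below them in muscle.

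Sfrp4 and Sfrp2 were the first and second of the 10 genes by mean FPKM in adipose tissue and pancreas, and Sfrp2 and Sfrp4 in muscle. In adipose tissue Sfrp2 and Sfrp1 were nearly level (means of 55.8 and 55.4 FPKM), Rspo1 was second in library 1 (44.5 FPKM), and on the deposited RPKM the order was Sfrp1 (83.8), Sfrp2 (80.6) and Sfrp4 (77.4). Sfrp4 took 30.0% to 37.2% of the summed FPKM of the 10 genes in FAP+ libraries, against 0.992% and 0.529% in MEFs. Sfrp2 took 21.3% to 45.8% in FAP+ libraries and 27.8% and 25.5% in MEFs, so its share in MEFs lay inside the FAP+ range. Dkk3 was first in MEFs, with 47.5% and 48.8%, against at most 6.63% in any FAP+ library. The third place went to Sfrp1 in adipose tissue (24.1 and 86.6 FPKM), to Dkk2 in muscle (29.1 and 39.9 FPKM) and to Rspo3 in the pancreas (22.2 and 27.5 FPKM). Neighbours in this order often overlapped: Sfrp4 and Sfrp2 did in adipose tissue (66.5 and 99.8 FPKM for Sfrp4, 38.2 and 73.4 FPKM for Sfrp2) and in muscle (115 and 71.9 FPKM for Sfrp4, 142 and 88.3 FPKM for Sfrp2), but not in the pancreas (54.1 and 70.9 FPKM for Sfrp4, 39.3 and 47.9 FPKM for Sfrp2).

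**Figure D4:**
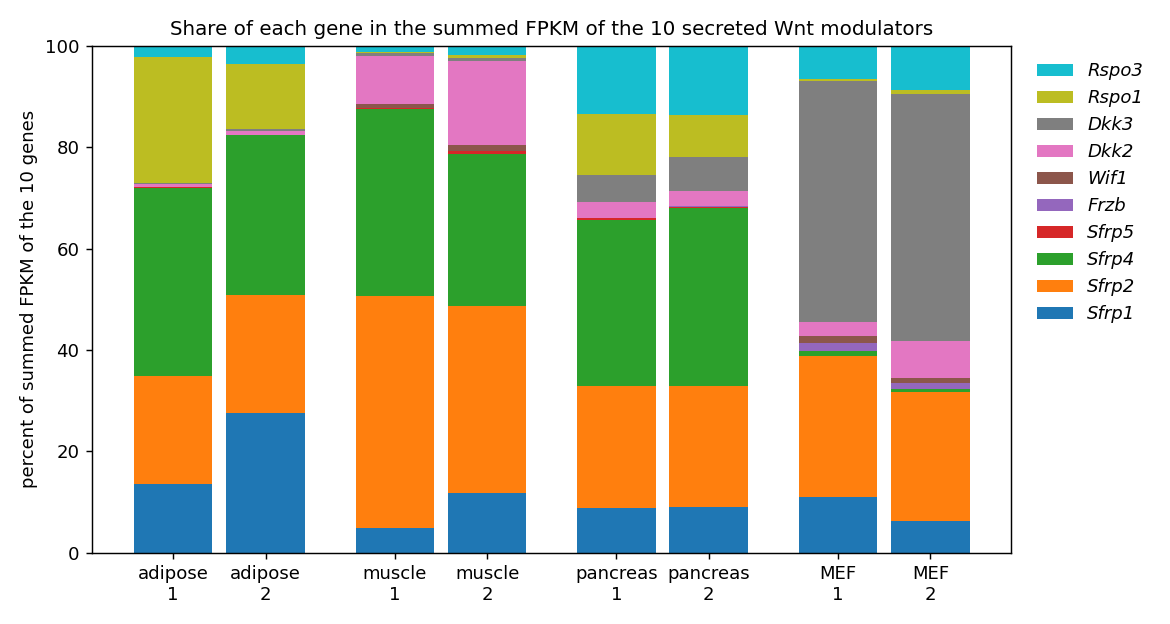
Share of each of the 10 genes in their summed FPKM (y axis, percent) in each of the 8 libraries, stacked. SFRP genes fill most of each FAP+ bar, Dkk3 fills 47.5% and 48.8% of the MEF bars, and Rspo1 takes 24.9% and 12.8% of the adipose bars.

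Other genes of the pathway, in 6 lists chosen by role, were read in the same fit. Of their 72 genes tested, 59.7% were called against MEFs in adipose tissue, 47.2% in muscle and 55.6% in the pancreas, beside 50.1%, 43.8% and 42.5% of all genes. In the list of other modulators, not all of them secreted, 6 of the 12 found were tested. Against MEFs 1 was higher and 4 lower in adipose tissue, 1 and 3 in muscle, and 1 and 4 in the pancreas. The shares called were 83.3%, 66.7% and 83.3%, beside the same shares of all genes. Rspo2, a further R-spondin, was at 0.23 and 0.37 CPM in adipose, 1.34 and 0.47 CPM in muscle and 0.05 and 0.05 CPM in pancreas FAP+ libraries, against 21.9 and 10.5 CPM in MEFs. It was 51.4-fold lower in adipose tissue (adjusted p = 0.000494) and 18.3-fold lower in muscle (adjusted p = 0.00128) than in MEFs, and against the 2 fragments of the pancreas the MEF level was 312 times as high (95% counting interval 86.1 to 2576, adjusted p = 0.000286). Its direction was thus opposite to that of Rspo1 in adipose tissue and the pancreas. Igfbp4, a binding protein of insulin-like growth factors that can also bind Lrp6, was higher than in MEFs in all 3 tissues (2.25 to 2.96 on the log2 scale). Tpbg, a membrane inhibitor of Wnt signals, was lower in all 3 (-2.68 to -2.32). The adipose libraries lay far apart for Tpbg, at 2.97 and 14.6 CPM, against 61.6 and 53.0 CPM in MEFs.

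Receptors that these modulators act on gave 5 higher and 8 lower of 22 in adipose tissue, 4 and 7 in muscle, and 3 and 7 in the pancreas against MEFs. The 13, 11 and 10 called stand beside shares of 50.1%, 43.8% and 42.5% over all genes, and are near them. Lgr4, a receptor of R-spondins, had 7.55 and 12.6 CPM in adipose, 9.57 and 9.70 CPM in muscle and 6.25 and 6.65 CPM in pancreas FAP+ libraries, against 52.3 and 35.2 CPM in MEFs. It was lower in all 3 tissues, by -2.11, -2.18 and -2.76 on the log2 scale (adjusted p = 0.00181, 0.00174 and 0.000702). Among the frizzled receptors, Fzd4 was higher than in MEFs in all 3 tissues (2.99, 2.59 and 2.72) and Fzd6 lower in all 3 (-2.59, -3.60 and -3.94). Lrp5 and Lrp6, the co-receptors on which Dkk2 acts, were not called in any of the 3 (adjusted p = 0.135 to 0.601). The ligases Znrf3 and Rnf43 were not called either (adjusted p = 0.196 to 0.883).

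Wnt ligands themselves gave 6 higher and 2 lower of 13 tested in adipose tissue, 4 and 2 in muscle, and 7 and 2 in the pancreas against MEFs. These are shares of 61.5%, 46.2% and 69.2%, beside 50.1%, 43.8% and 42.5% of all genes. Wnt11 was higher in all 3 (3.07, 5.05 and 3.72 on the log2 scale) and Wnt10a lower in all 3 (-6.90, -5.85 and -7.93). The adipose libraries lay far apart for Wnt11, at 6.40 and 39.6 CPM, against 2.88 and 2.61 CPM in MEFs. Wnt2 was highest in muscle, as Dkk2 was, with 2.74 and 2.43 CPM in adipose, 55.7 and 23.5 CPM in muscle and 6.05 and 8.78 CPM in pancreas FAP+ libraries, against 2.22 and 1.61 CPM in MEFs. It was higher in muscle than in adipose tissue by 3.94 (adjusted p = 0.00724). Wnt2b was highest in the pancreas, at 6.57 and 10.3 CPM against 1.30 CPM or less in the other 6 libraries, and exceeded adipose tissue by 2.78 (adjusted p = 0.00948) and muscle by 3.33 (adjusted p = 0.00858). Of the secretion genes, Porcn, which acylates Wnts, was higher in all 3 tissues than in MEFs (2.30, 2.38 and 2.32), and Wls, which carries Wnts to the surface, was lower in adipose tissue and muscle (-1.01 and -1.17).

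Genes downstream of the receptors were mixed. Of 16 intracellular components, 3 were higher and 2 lower in adipose tissue, 2 and 1 in muscle, and 2 and 2 in the pancreas against MEFs, with Tcf7l1 higher (1.98, 1.59 and 1.56 on the log2 scale) and Ctnnb1, which encodes beta-catenin, lower (-0.88, -1.43 and -1.51) in all 3. Of 13 targets and feedback genes tested, 4 were higher and 6 lower in adipose tissue, 4 and 4 in muscle, and 5 and 6 in the pancreas, which is 76.9%, 61.5% and 84.6% called beside 50.1%, 43.8% and 42.5% of all genes. Axin2 and Nkd1, feedback inhibitors used as readouts of the canonical pathway, were highest in the pancreas, while 3 others of the list were lower there than in adipose tissue. Axin2 had 4.57 and 3.37 CPM in adipose, 4.08 and 1.54 CPM in muscle and 15.3 and 13.4 CPM in pancreas FAP+ libraries, against 0.93 and 0.46 CPM in MEFs, and was higher than in MEFs in all 3 (2.50, 2.00 and 4.36, adjusted p = 0.00782, 0.0213 and 0.000927). Its difference between pancreas and adipose tissue missed the threshold (1.86, adjusted p = 0.0644), as did that between pancreas and muscle (2.37, adjusted p = 0.0552). Nkd1 had 6.63 and 8.07 CPM in adipose, 7.21 and 8.24 CPM in muscle and 34.1 and 36.8 CPM in pancreas FAP+ libraries, against 4.83 and 3.52 CPM in MEFs. It was higher in the pancreas than in adipose tissue by 2.27 (adjusted p = 0.00484) and than in muscle by 2.20 (adjusted p = 0.00753). Wisp2 was lower in the pancreas than in adipose tissue (-2.25, adjusted p = 0.00553) and than in muscle (-3.16, adjusted p = 0.00272), as was Twist1 (-1.29, adjusted p = 0.0251, and -1.28, adjusted p = 0.0432), and Myc was lower in the pancreas than in adipose tissue (-2.03, adjusted p = 0.0118). In all, 2 targets were higher and 3 lower in the pancreas than in adipose tissue, and 2 higher and 2 lower than in muscle. That is 38.5% called beside 9.05% of all genes, and 30.8% beside 3.67%. The direct targets Myc and Wisp1 went in opposite directions against MEFs, with Myc higher (3.66, 2.54 and 1.63) and Wisp1 lower (-4.07, -4.29 and -3.95) in all 3 tissues.

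Between FAP+ tissues, 2 of the 72 pathway genes tested were called in muscle against adipose tissue (2.78%, beside 6.12% of all genes), 8 in pancreas against adipose tissue (11.1%, beside 9.05%) and 7 in pancreas against muscle (9.72%, beside 3.67%). Against adipose tissue, muscle had 1 Wnt ligand (Wnt2) and 1 target (Tnfrsf19) higher and none lower. The pancreas had 3 genes higher and 5 lower than adipose tissue, and 3 higher and 4 lower than muscle. Beside the targets above, Fzd5 was lower in the pancreas than in both (-2.35 and -2.12), Wnt5b was lower than in adipose tissue (-1.89) and Wnt2 lower than in muscle (-2.41). Tnfrsf19, a receptor of the tumour necrosis factor family, had 0.08 and 0.08 CPM in adipose, 0.83 and 0.99 CPM in muscle and 19.1 and 16.4 CPM in pancreas FAP+ libraries, against 1.05 and 0.64 CPM in MEFs.

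Genes with the level pattern most like each member over the 8 libraries were found by Pearson's r of log2 CPM among about 9644 other genes with a mean of at least 10 CPM in some group. The 8 libraries form 4 groups and share these values, so r is a description. Sfrp4 was matched most closely, by Scara5 (0.998), Serping1 (0.997) and Pamr1 (0.997), and 47 genes had r of at least 0.99 with it. Wif1 was matched by Comp (0.975), Mme (0.972) and Adcy2 (0.961), and Dkk2 by Rorb (0.967), Glce (0.949) and Itgb7 (0.948). Rspo1 was matched by Tctn2 (0.989), Slc24a3 (0.985) and Fdxr (0.982), and Rspo3 by Thsd4 (0.982), Sardh (0.970) and Hoxb5 (0.961). For Dkk3 the closest were Srgap3 (0.989), Sms (0.985) and Bcs1l (0.983), and for Frzb they were Rwdd4a (0.995), Capza1 (0.993) and Phf6 (0.992). Sfrp2 was matched by Col1a2 (0.976), Chrdl1 (0.972) and Plekhf1 (0.965), Sfrp1 by Amigo2 (0.987), 3632451o06rik (0.978) and Rnf44 (0.964), and Sfrp5 by Pitpnm1 (0.970), Pgf (0.967) and Cxcl14 (0.966).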

How the data were processed

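The authors deposited bias-adjusted estimated counts of fragments and FPKM values per gene, and a second table of RPKM values per gene. Bowtie2, TopHat2, edgeR, HTSeq and mm9 are listed, per the submitters' processing notes, without versions or roles. What program adjusted for bias is not stated there. The deposited estimated counts were rounded to whole numbers, although the planned design assumed counts. Each table held 6 further columns, which were not used.

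edgeR 4.0.16 (R 4.3.3) fitted all 8 libraries as 4 groups with TMM factors, filterByExpr and the quasi-likelihood test, leaving 4 residual degrees of freedom, at a common BCV (coefficient of variation between libraries of a group) of 33.2%. P-values were adjusted by Benjamini-Hochberg over 14847 genes, and a gene was called at an adjusted p below 0.05. The p-values rest on the spread between duplicate isolations, estimated over all 4 groups together. Alternatives were DESeq2 1.42.0, limma 3.58.1 on log2(FPKM + 1) or log2(FPKM + 0.1) of the authors' deposited FPKM, RLE or upper quartile scaling, no filter or 5 CPM in 2 libraries, a fit limited to the compared groups, a replicate block, leaving out each library, and edgeR on whole reads recovered from the deposited RPKM. Those reads were recovered for the 20965 genes whose values could all be made whole within 0.01 read, and 1644 genes could not. Whole values were the condition for keeping a gene, so they are no check of the recovery. The recovered reads came to 9497145 to 16807757 per library. The scripts were tested on simulated data.

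A fold against a group at 0 fragments is a lower bound at 3 fragments per library (0.0900 to 0.229 CPM), and one against 1 to 3 fragments has an exact 95% interval. The interval covers counting error only and treats the rounded, bias-adjusted estimates as counts. The bound has no interval for the counts of the higher group. The sources used here do not say whether counting used strand. Named beside the members were up to 3 called genes of each pathway list per comparison with the largest fold and at least 5 CPM in the higher group, the 3 genes most like each member, and the 2 highest markers of a cell type list. Twist1 and, between tissues, Myc and Axin2, the genes Lrp5, Lrp6, Znrf3 and Rnf43, and the markers Lrat, Gfap, Msln and Upk3b, fall outside that rule and were named after their values were seen. The members and lists were chosen with earlier results of these data known. Promoters are RefSeq's, on GRCm38.p6.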

Additional observations from a re-analysis of the deposited data

Results flagged for a closer look

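In 13 cases a member's difference from MEFs was not the same in FAP+ cells of 2 tissues, by the test of the 2 tissues against each other, in which the MEFs cancel out. The values below are log2 fold changes of that test in edgeR, first-named tissue minus second. For muscle against adipose tissue they were 4.19 for Dkk2, -5.82 for Rspo1, -1.32 for Rspo3 and 7.21 for Wif1. For pancreas against adipose tissue they were 1.41 for Dkk2, 2.98 for Dkk3, -1.95 for Rspo1 and 1.21 for Rspo3. For pancreas against muscle they were -2.78 for Dkk2, 2.52 for Dkk3, 3.87 for Rspo1, 2.52 for Rspo3 and -9.8 for Wif1. The Wif1 values are fitted against 1 or 0 fragments, depend on the prior count and are no bounds. Groups of 2 libraries are too small for a check of single libraries against their group.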

How the results depend on the processing

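Of 60 member differences, 35 were called. Under those of the 19 alternatives in which the member was tested, all 35 kept their direction and 18 were always called. Sfrp5, Frzb and Wif1 were not tested under the filter of 5 CPM, so none of their differences was called under every alternative. The size of 26 of the 35 moved by over 1.5 times in limma on FPKM, that of 11 on recovered reads, that of 2 in DESeq2 and that of 14 with some library left out. The other direction was seen only for differences that were not called. On FPKM (limma with 1 added, with 0.1 added, and with a filter of 1 FPKM) Rspo3 in adipose tissue against MEFs was -0.50, -0.58 and -0.50, Dkk2 in the pancreas against MEFs was -0.0815, -0.0921 and -0.0815, Sfrp4 in muscle against adipose tissue was 0.16 in each, and Frzb in pancreas against muscle was 0.007 with 1 added, filtered or not. On recovered reads, Sfrp4 in muscle against adipose tissue was 0.0547, Frzb in muscle against adipose tissue was -0.11 and Frzb in pancreas against adipose tissue was -0.14. With 1 library left out, Sfrp4 in muscle against adipose tissue ranged from -0.72 to 0.018, Frzb from -0.0234 to 0.93 in muscle against adipose tissue, -0.43 to 0.85 in pancreas against adipose tissue and -0.76 to 0.35 in pancreas against muscle, and Wif1 in pancreas against adipose tissue from -3.87 to 0. The cause was not tested.

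Counts of called members moved beyond 1.5 times when just the compared groups entered the fit (10 in muscle against MEFs, 2 in muscle against adipose tissue, 1 in pancreas against adipose tissue), under a filter of 5 CPM (4 in pancreas against MEFs, where only 7 members were tested) and in limma on log2(FPKM + 0.1) (2 in pancreas against adipose tissue). With 1 library left out, called members ranged from 7 to 10 in adipose tissue against MEFs, 5 to 9 in muscle against MEFs, 6 to 7 in pancreas against MEFs, 2 to 5 in muscle against adipose tissue, 0 to 5 in pancreas against adipose tissue and 0 to 6 in pancreas against muscle. Over all genes the same ranges were 4491 to 9437, 3558 to 9018, 3629 to 8815, 91 to 5577, 43 to 5258 and 76 to 1357, in the same order. Such a fit called 4588 genes in adipose tissue against MEFs, 74 in muscle against adipose tissue, 305 in pancreas against adipose tissue and 1752 in pancreas against muscle. In those 3 tissue comparisons DESeq2 called 2029, 2405 and 1055 genes and recovered reads 1933, 3235 and 864. Limma called 590 genes with 0.1 FPKM added and 495 with the filter of 1 FPKM in muscle against adipose tissue, and 872 with that filter in pancreas against adipose tissue.

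Replicate numbers did not pair the libraries: the correlation of deviations between same-numbered libraries lay between -0.16 and 0.35. With the replicate number as a block, 9, 6 and 7 members were called against MEFs in adipose tissue, muscle and pancreas, 3 in muscle against adipose tissue, 3 in pancreas against adipose tissue and 5 in pancreas against muscle, and over all genes 7202, 6428, 6214, 732, 1147 and 471. With 2 libraries a group the spread rests on few degrees of freedom, and for Sfrp5, Frzb and Wif1 on fewer than 150 fragments per library.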

Other observations

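Marker lists of cell types not named above gave the following summed levels. The 5 adipocyte markers summed to 32.0 and 15.2 CPM in adipose FAP+ libraries, with all 5 detected, and to 1.47 CPM or less elsewhere. The 8 leukocyte markers summed to 14.8 and 9.81 CPM in adipose FAP+ libraries and to 1.89 to 3.13 CPM in the other 6. The 5 islet markers summed to 16.3 and 10.1 CPM in pancreas FAP+ libraries and to 4.04 CPM or less elsewhere. The pancreas duct list was carried by Spp1, which had 1360 and 443 CPM in pancreas FAP+ libraries, against 5816 and 5753 CPM in MEFs. The 8 pericyte and smooth muscle markers summed to 79.9 to 173 CPM in FAP+ libraries, against 182 and 198 CPM in MEFs. The 5 muscle fibre markers summed to 50.3 and 65.1 CPM in muscle FAP+ libraries and to 18.1 to 69.4 CPM in the other FAP+ libraries, against 25.1 and 21.8 CPM in MEFs. Satellite cell markers summed to at most 1.37 CPM in any library, and glia markers to at most 9.52 CPM. Their part in the values of the 10 genes was not tested.

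Among the members themselves, levels over the 8 libraries moved most alike for Frzb and Dkk3 (Pearson's r of log2 CPM 0.833) and for Sfrp2 and Sfrp4 (0.831), and most oppositely for Sfrp4 and Frzb (-0.901) and for Wif1 and Rspo1 (-0.882). The 8 libraries form 4 groups, so these are descriptions.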
